A study of Mus musculus with 8 samples.

Results

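The 10 tubulin isotypes described here are the α-tubulin genes Tuba1a, Tuba1b, Tuba1c, Tuba4a and Tuba8 and the β-tubulin genes Tubb2a, Tubb2b, Tubb4b, Tubb5 and Tubb6. They were taken by gene name from a deposited table of 54532 genes, and all 10 had a row. The table holds RNA sequencing of livers from 2 groups of 4 mice, METTL3-HKD and METTL3-Flox, all collected after 1 h of partial warm ischemia and 6 h of reperfusion, so every liver was injured and no sham-operated liver is part of the comparison. METTL3-HKD mice were METTL3 flox/- with Alb-iCre, a recombinase driven by the albumin promoter and therefore active in hepatocytes, and METTL3-Flox mice from the same litters were METTL3 flox/flox without the recombinase. METTL3 is the enzyme that writes N6-methyladenosine on RNA, and the floxed part is exon 4. The paper describes METTL3-HKD mice as heterozygous, with METTL3 reduced in the liver, and reports having checked that reduction. The recombinase acts in hepatocytes, and what the second allele of flox/- carries in the other cells of the liver is not given in the sources used here. The methods name purchased male C57BL/6 mice of 8 weeks, but give no age or sex for the METTL3-HKD and METTL3-Flox mice, which were bred. The sample labels give neither age nor sex.

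Microtubules are hollow polymers of α- and β-tubulin heterodimers, and each family is encoded by several isotype genes whose proteins differ mainly in their acidic C-terminal tails. In hepatocytes microtubules carry secretory vesicles, bile canalicular transporters and endosomes, and in migrating leukocytes they position the organelles and the trailing edge. Tubulin mRNAs are also controlled by their own product: when free dimers accumulate, the adaptor TTC5 recognises the first residues of a nascent tubulin on the ribosome and its mRNA is degraded. The last residue of most α-tubulins, a tyrosine, is removed by vasohibins and put back by tubulin tyrosine ligase.

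The ends of the reading frames show what the isotypes share and where they part, and the GENCODE M21 transcript with the longest reading frame was used for each gene (GRCm38). The first 4 codons read by the autoregulation machinery are shown for an α and a β gene, with the fourth codon, the one at which the families differ, in capitals.
Tuba1a start: atgcgtgagTGC
Tubb2a start: atgcgcgagATC
All 5 α genes encoded the same first 4 residues, and all 5 β genes encoded the other version. The encoded tail differs between most of the isotypes compared. The last 60 coding bases before the stop codon are therefore shown for 2 α and 4 β isotypes, with the final sense codon in capitals.
Tuba4a end: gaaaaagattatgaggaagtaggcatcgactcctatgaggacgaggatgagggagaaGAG
Tuba8 end: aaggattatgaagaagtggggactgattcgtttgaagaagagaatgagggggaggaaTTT
Tubb2a end: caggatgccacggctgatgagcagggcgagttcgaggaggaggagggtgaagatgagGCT
Tubb2b end: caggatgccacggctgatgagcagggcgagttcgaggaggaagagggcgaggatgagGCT
Tubb4b end: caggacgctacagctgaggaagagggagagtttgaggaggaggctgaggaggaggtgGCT
Tubb5 end: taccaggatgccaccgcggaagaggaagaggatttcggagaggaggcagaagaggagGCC
The final codon is a glutamate codon in Tuba4a and a phenylalanine codon in Tuba8, so both lack the residue that vasohibins remove. Over these 60 bases Tubb2a and Tubb2b differ at 3 bases, and the 20 encoded residues are the same.

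Near identity between isotypes bears on how far the levels of single isotypes can be trusted. Coding identity was 98.3% between Tuba1a and Tuba1b, 97.9% between Tuba1b and Tuba1c and 96.5% between Tubb2a and Tubb2b, against 78.8% for the least similar α pair. Of the 100-base windows of the Tuba1a transcript, 65.8% also occur in a transcript of another gene, as do 73.0% of those of Tuba1b and 53.4% of those of Tuba1c. For Tubb2a and Tubb2b the shares were 36.9% and 27.7%, while no window of Tubb5 or Tubb6 occurred elsewhere. The deposited length of Tubb6, 1757 bases, differs from the 2437 exonic bases of GENCODE M21, so its windows come from a gene model that is not the deposited one. How the authors assigned reads with more than 1 match, and whether strand was used, is not given in the sources used here, so the values of Tuba1a, Tuba1b, Tuba1c, Tubb2a and Tubb2b are uncertain to that extent. Tuba4a is uncertain for another reason, since 1379 of its 3701 exonic bases overlap exons of Stk16, a kinase gene on the opposite strand. Tuba1a, Tuba1b, Tuba8 and Tubb4b overlap exons of Gm49450, Gm41396, Gm15856 or Fam166a, none of which had more than 3 reads in a liver. Gm49450 lies on the same strand and shares 473 of 1803 exonic bases of Tuba1a and 426 of 1875 of Tuba1b. Its few reads do not show how reads in the shared bases were counted.

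Libraries had between 15861245 and 18434488 reads on genes, rebuilt from the deposited FPKM (fragments per kilobase of gene length, relative to library size and already scaled between libraries by the authors). The 16645 genes whose mean reached 0.1 FPKM were fitted together on log2(FPKM + 0.1) with limma, two-sided, and p-values were adjusted over all of them by the Benjamini-Hochberg method. A fold change on this scale understates the change of genes at low levels. Mettl3 itself was at 1.56, 1.39, 1.17 and 1.20 FPKM in HKD livers 1 to 4 and at 1.84, 1.16, 1.45 and 1.54 FPKM in Flox livers 1 to 4. These ranges overlap (log2 fold change -0.16, SE 0.165, adjusted p = 0.556 from limma), and the sign turned when libraries were scaled to their reads on genes (0.05), so the level of the whole transcript does not separate the labels. That scaling moved the median of all genes from -0.00 to 0.19 on the log2 scale, and values under it are to be read against 0.19.

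In Flox livers the isotypes covered a wide range of levels. Tubb4b, a broadly expressed β isotype, was the most abundant at 71.8 ± 26.7 FPKM (SD, n = 4), followed by Tubb2a at 42.3 ± 23.2, Tuba4a at 41.8 ± 14.1 and Tuba1c at 39.9 ± 18.8 FPKM. Tubb5, the β isotype of most dividing cells, was at 23.8 ± 9.92 FPKM and Tuba1b, the main α isotype of many cell types, at 18.2 ± 4.77 FPKM. Tubb6 was lower at 6.67 ± 1.97 FPKM, and Tuba8, Tuba1a and Tubb2b were at 1.74 ± 1.31, 1.17 ± 0.395 and 0.381 ± 0.371 FPKM. Of the 9 neighbouring pairs in this order, the ranges of Tuba1b and Tubb6, of Tubb6 and Tuba8, and of Tuba1a and Tubb2b did not overlap, whereas the ranges of the other 6 pairs did. Tubb4b was above Tubb2a in all 4 Flox livers all the same, while Tuba4a was above Tuba1c in 2 of 4. In HKD livers Tubb4b (86.3 ± 18.04 FPKM) and Tubb2a (61.6 ± 30.4 FPKM) again came first. Tubb6 (27.6 ± 11.1 FPKM) there reached the level of Tuba1b (28.6 ± 5.53 FPKM), with Tuba1b the higher of the pair in 2 of 4 livers.

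**Figure D1:**
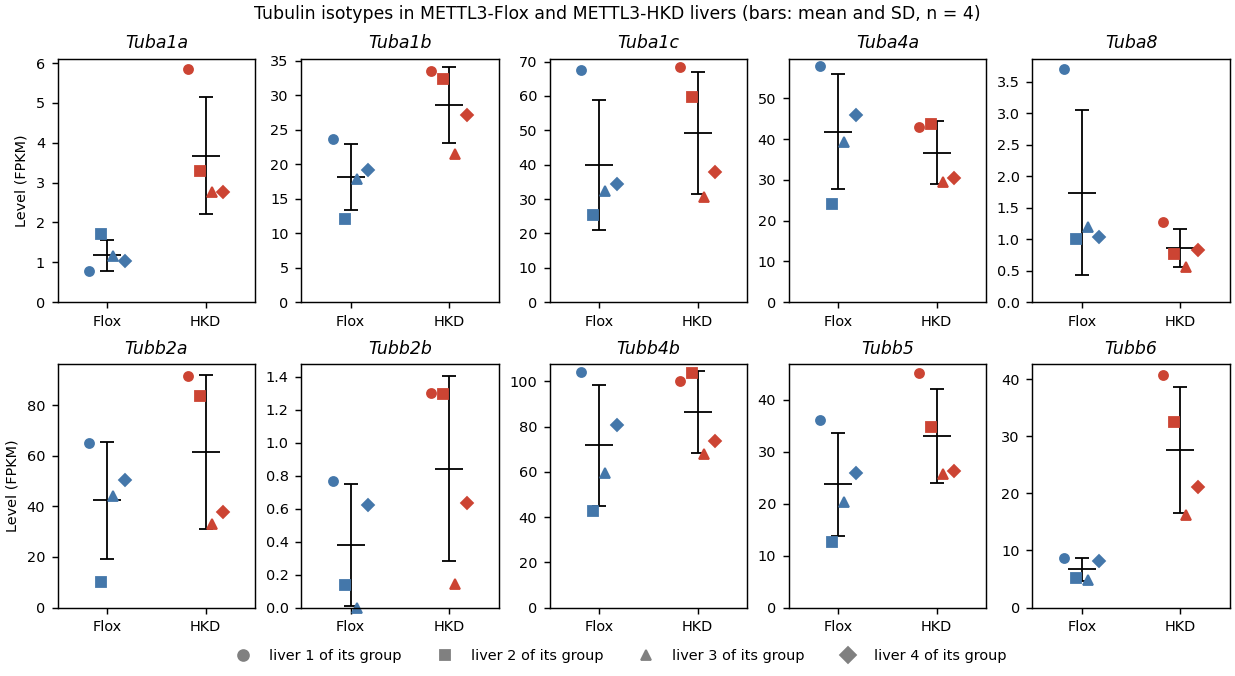
Level of each isotype in FPKM (linear axes from 0) in the 4 METTL3-Flox and 4 METTL3-HKD livers, with 1 symbol per liver number and bars for the mean and SD. Only for Tuba1a (0.781 to 1.72 against 2.76 to 5.85 FPKM) and Tubb6 (4.83 to 8.65 against 16.2 to 40.7 FPKM) do the groups not overlap.

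Of the 10 isotypes, 2 rose in HKD livers past both thresholds (adjusted p under 0.05, and 1 or more on the log2 scale), namely Tubb6 and Tuba1a, against 4.7% of all tested genes. No isotype fell at these thresholds, as did 1.52% of all genes. At the adjusted p alone the same 2 isotypes were higher (9.05% of all genes) and 0 were lower (6.63%), with 3 of 10 at an unadjusted p under 0.05 in limma, all of them higher, beside 31.9% of all genes in either direction and 16.7% higher. The 2 isotypes were also those whose HKD and Flox ranges did not overlap in the higher direction (12.7% of all genes), and no isotype was without overlap in the lower direction (9.95%). The log2 fold change was above 0 in 8 of 10 isotypes (49.7% of all genes), and its median was 0.60 where that of all tested genes was -0.00. The counts at both thresholds were 2 and 0 in each of the 17 alternative fits.

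Tubb6 is a divergent β isotype, known from background work to be high in non-neuronal cells such as osteoclasts and regenerating muscle and to make microtubules less stable when abundant. It lies on the plus strand of chromosome 18 (chr18:67390717-67402748, GRCm38). It was at 40.7, 32.4, 16.2 and 21.2 FPKM in HKD livers 1 to 4 and at 8.65, 5.14, 4.83 and 8.06 FPKM in Flox livers 1 to 4. The lowest HKD liver stood above the highest Flox liver. The log2 fold change was 1.99 (SE 0.307, 95% interval 1.30 to 2.68, adjusted p = 0.00679 from limma), a 3.97-fold difference on this scale, and the exact permutation test of the FPKM gave p = 0.0286, the smallest that 4 against 4 allow. The rebuilt reads numbered 514 to 1440 in HKD and 129 to 228 in Flox livers. Without HKD 1, the liver with the highest level, the log2 fold change was 1.77 (adjusted p = 0.0184 from limma), and over the 17 alternatives the adjusted p lay between 0.00411 and 0.0282.

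Tuba1a, the α isotype best known from developing neurons, lies on the minus strand of chromosome 15 (chr15:98949837-98953703). Tuba1b, Tuba1a and Tuba1c sit together there within 106686 bases. Tuba1a was at 5.85, 3.30, 2.76 and 2.78 FPKM in HKD livers 1 to 4 and at 0.781, 1.72, 1.17 and 1.03 FPKM in Flox livers 1 to 4. Again every HKD liver was above every Flox liver, although the levels are low and rest on 90 to 212 reads in HKD and 20 to 50 reads in Flox livers. The log2 fold change was 1.54 (SE 0.285, 95% interval 0.90 to 2.19, adjusted p = 0.0114 from limma), and the exact permutation test gave p = 0.0286. Within the Flox group Tuba1a ran against the other isotypes: Flox 1, the highest liver for 9 isotypes, was the lowest for Tuba1a, and Flox 2, the lowest for 7 isotypes, was the highest. The log2 fold change was 1.30 without HKD 1 (adjusted p = 0.0249 from limma) and 1.07 with a pseudocount of 1 FPKM (adjusted p = 0.0168), and the adjusted p lay between 0.00773 and 0.0403 over the 17 alternatives.

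The neighbouring Tuba1b (chr15:98931425-98934565, minus strand) was at 33.5, 32.4, 21.4 and 27.2 FPKM in HKD livers 1 to 4 and at 23.6, 12.1, 17.9 and 19.2 FPKM in Flox livers 1 to 4. Only 1 Flox liver, Flox 1, reached into the HKD range. Its log2 fold change of 0.67 (SE 0.214, 95% interval 0.18 to 1.15) did not pass (adjusted p = 0.0649 from limma), and the exact permutation test of the FPKM gave p = 0.0571. Of the 17 alternatives, 4 brought it under 0.05: scaling to reads on genes (log2 fold change 0.88, adjusted p = 0.0328), voom on rebuilt reads (0.67, adjusted p = 0.0495), leaving out Flox 1 (0.81, adjusted p = 0.0427) and leaving out HKD 3 (0.80, adjusted p = 0.0411). The third member of the cluster, Tuba1c (chr15:99029891-99038110, plus strand), was at 68.4, 59.8, 30.7 and 37.8 FPKM in HKD livers and at 67.6, 25.4, 32.3 and 34.5 FPKM in Flox livers. Its highest livers were HKD 1 and Flox 1, and the groups covered nearly the same range (log2 fold change 0.33, 95% interval -0.44 to 1.09, adjusted p = 0.542 from limma). The value lay between 0.14 (without Flox 2 or HKD 1) and 0.61 (without Flox 1).

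The other α isotypes, both without the terminal tyrosine codon, were those with a fitted change below 0. Tuba4a (chr1:75214228-75219865, minus strand), an isotype known from platelets and muscle, was at 43.0, 43.6, 29.6 and 30.4 FPKM in HKD livers and at 58.0, 24.0, 39.3 and 45.8 FPKM in Flox livers. The Flox livers spread around the HKD livers on both sides. The log2 fold change was -0.14 (95% interval -0.73 to 0.45, adjusted p = 0.745 from limma), and its sign turned to 0.04 without Flox 1. With scaling to reads on genes it was 0.07, below the 0.19 of the median gene. Stk16, the gene on the opposite strand that shares exonic bases with it, was at 13.7 to 14.3 FPKM in HKD and 13.7 to 16.8 FPKM in Flox livers (log2 fold change -0.13, adjusted p = 0.317; 0.08 with scaling to reads on genes). Tuba8 (chr6:121210696-121226854, plus strand), known from testis and striated muscle, was at 1.27, 0.765, 0.563 and 0.832 FPKM in HKD livers and at 3.70, 1.01, 1.19 and 1.04 FPKM in Flox livers. Flox 1 stood apart, and the other 3 Flox livers lay within the range of the HKD livers. The log2 fold change of -0.77 (95% interval -1.69 to 0.14) did not pass (adjusted p = 0.223 from limma) and was -0.35 without Flox 1, with 23 to 58 reads in HKD and 37 to 119 reads in Flox livers.

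The remaining β isotypes had fitted changes above 0, none of which passed the test. Tubb2a (chr13:34074274-34078007, minus strand) was at 91.7, 83.8, 33.1 and 37.7 FPKM in HKD livers and at 64.9, 10.1, 44.1 and 50.3 FPKM in Flox livers. It was the most variable of the abundant isotypes, with coefficients of variation of 49.4% and 54.8%, and its interval was correspondingly wide (log2 fold change 0.68, 95% interval -0.65 to 2.004, adjusted p = 0.465 from limma). Without Flox 2, its lowest liver, the log2 fold change was 0.087. Its near copy Tubb2b (chr13:34126748-34130466, minus strand) was at 1.30, 1.30, 0.145 and 0.633 FPKM in HKD livers and at 0.767, 0.135, 0 and 0.623 FPKM in Flox livers. With 6 to 60 reads against 0 to 25 reads, its fitted log2 fold change of 1.14 (95% interval -0.63 to 2.92, adjusted p = 0.35) depends on the pseudocount and was 0.54 without Flox 3. Tubb4b (chr2:25222160-25224702, minus strand) was at 99.98, 103.6, 68.0 and 73.9 FPKM in HKD livers and at 104.3, 42.6, 59.6 and 80.6 FPKM in Flox livers, and Flox 1 was the highest of all 8 (log2 fold change 0.32, 95% interval -0.29 to 0.93, adjusted p = 0.451, and 0.096 without Flox 2). Its processed pseudogene Tubb4b-ps1 was at 1.13 to 2.03 FPKM in HKD and 0.834 to 1.95 FPKM in Flox livers (log2 fold change 0.33, adjusted p = 0.474). Tubb5 (chr17:35833921-35838306, minus strand), which shares no 100-base window with another gene, was at 45.2, 34.7, 25.8 and 26.3 FPKM in HKD livers and at 36.2, 12.6, 20.3 and 26.0 FPKM in Flox livers. Its interval of -0.17 to 1.24 around a log2 fold change of 0.53 reaches past 1 (adjusted p = 0.267 from limma), and the value was 0.26 without Flox 2.

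**Figure D2:**
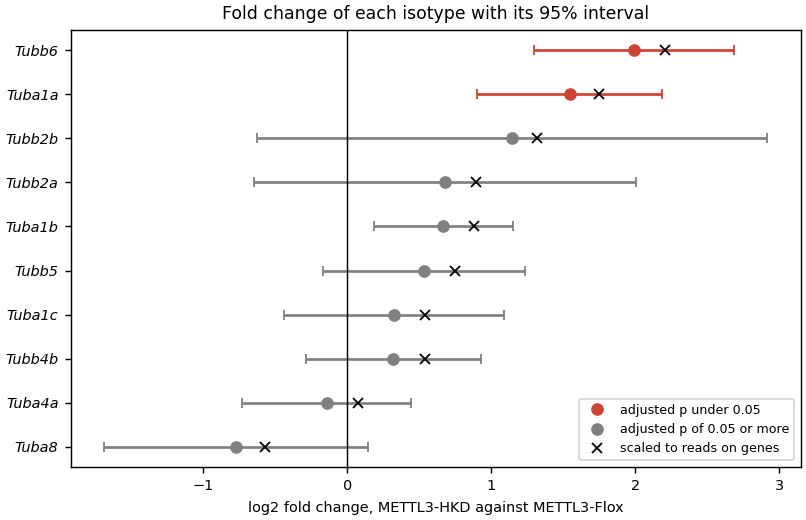
Log2 fold change of each isotype in METTL3-HKD against METTL3-Flox livers (points) with its 95% interval (bars), in red where the adjusted p was under 0.05, and the value after scaling to reads on genes (crosses). The intervals of Tubb6 (1.99) and Tuba1a (1.54) start at 1.30 and 0.90 but overlap those of other isotypes, such as Tubb2b (up to 2.92), and the crosses shift every isotype upwards by about the 0.19 by which they shift the median gene.

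The order of the livers was similar for most isotypes. HKD 1 was the highest HKD liver for 8 isotypes and HKD 2 for the other 2, Tuba4a and Tubb4b, while HKD 3 was the lowest for all 10. Flox 1 was the highest Flox liver for 9 isotypes, and Flox 2 was the lowest for 7. The summed level of the 10 isotypes was 431, 396, 228 and 259 FPKM in HKD livers 1 to 4 and 368, 135, 221 and 267 FPKM in Flox livers 1 to 4. The Flox sums thus ran from below every HKD liver to above 2 of them. These rows share a library, and depth and scaling are common to them: the size factor implied by the deposited FPKM was 1.18 in HKD 1 and 0.835 in Flox 1, the highest and the lowest of the 8, and its part in the order was not tested.

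Summed α-tubulin was 118.9 ± 32.0 FPKM in HKD and 102.8 ± 37.4 FPKM in Flox livers (exact permutation test, p = 0.600), a log2 difference of 0.24 that was 0.036 without Flox 2 and 0.46 without Flox 1. Summed β-tubulin was 209 ± 67.9 FPKM against 145 ± 60.8 FPKM (exact permutation test, p = 0.200, adjusted p = 0.300 over the 3 values tested), a log2 difference of 0.58 that was 0.28 without Flox 2. The ratio of summed α to summed β, which no scaling between libraries can alter, was 0.545, 0.547, 0.594 and 0.620 in HKD livers 1 to 4 and 0.715, 0.910, 0.713 and 0.614 in Flox livers 1 to 4. Only Flox 4 fell inside the HKD range, just below HKD 4. The mean ratio was 0.576 ± 0.0367 against 0.738 ± 0.124 (exact permutation test, p = 0.0571, adjusted p = 0.171), and it was computed per length. On rebuilt reads without division by gene length the log2 difference was -0.41 in place of -0.34, with p = 0.0286 before adjustment in the exact permutation test.

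The make-up of each family, as the share of an isotype in the summed FPKM of its family, is also free of scaling between libraries. Tubb6 made up 14.6, 12.7, 11.3 and 13.3% of β-tubulin in HKD livers 1 to 4 and 4.03, 7.29, 3.75 and 4.87% in Flox livers 1 to 4. The groups were well apart, and the mean share was 12.96 ± 1.37% against 4.98 ± 1.61%. Tubb4b took up 42.5 ± 5.38% in HKD and 51.0 ± 6.36% in Flox livers, with overlap, while the share of Tubb5 was nearly level at 16.1 ± 1.84% and 16.5 ± 1.04%. Tubb2a held 23.1 to 32.9% of β-tubulin in HKD livers and 14.3 to 34.2% in Flox livers, so it did not separate them.

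Among the α isotypes, Tuba1b made up 22.0, 23.1, 25.2 and 27.5% in HKD livers 1 to 4 and 15.4, 18.8, 19.4 and 18.9% in Flox livers 1 to 4. Tuba4a made up 28.3, 31.2, 34.8 and 30.7% in HKD livers and 37.7, 37.4, 42.8 and 45.1% in Flox livers. For both isotypes the groups did not overlap, with Tuba1b the larger and Tuba4a the smaller part of α-tubulin in HKD livers. The share of Tuba8 was likewise smaller, at 0.547 to 0.841% against 1.03 to 2.41%. Tuba1a made up 3.07 ± 0.635% against 1.37 ± 0.927%, where Flox 2 (2.67%) lay inside the HKD range, and Tuba1c 40.5 ± 4.07% against 38.1 ± 4.56%. Shares of 1 family depend on each other. For Tuba1b, Tuba4a, Tuba8 and Tubb6 the exact permutation test gave p = 0.0286, the smallest it can give, and adjusted p = 0.0714 over the 10 shares, so 0 of 10 passed. At that smallest p these shares could have passed only if more of the 10 had separated fully. The count of 0 therefore does not measure how large the differences were.

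**Figure D3:**
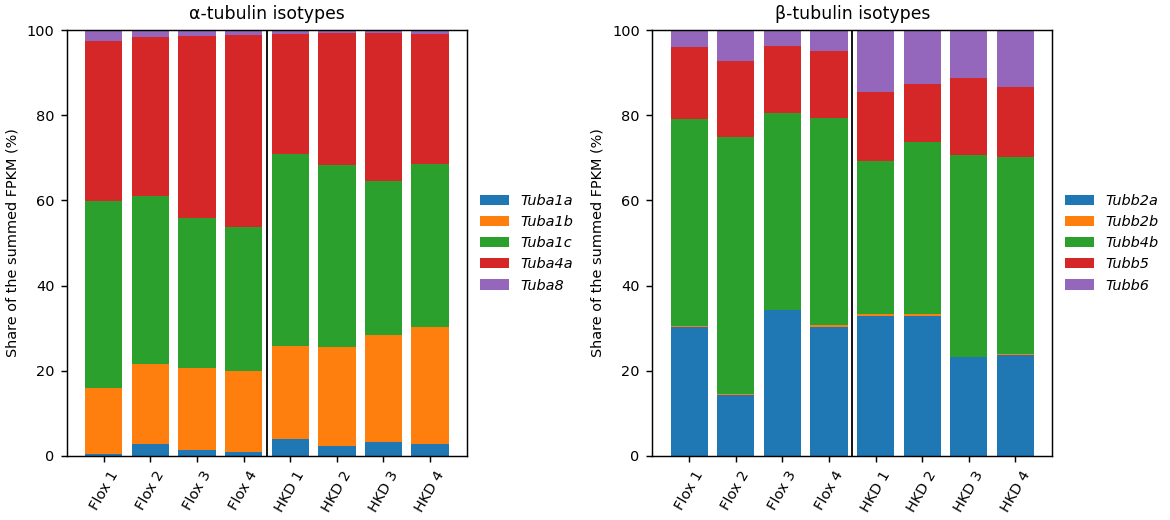
Share (%) of each isotype in the summed FPKM of the α isotypes (left) and of the β isotypes (right), 1 stacked bar per liver, with the 4 METTL3-Flox livers to the left of each line and the 4 METTL3-HKD livers to the right. The Tubb6 segment spans 11.3 to 14.6% in HKD and 3.75 to 7.29% in Flox livers, and the Tuba4a segment 28.3 to 34.8% and 37.4 to 45.1%.

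Genes that fold, modify, anchor or use tubulin were taken from 7 lists with 141 genes, of which 113 were tested. At the adjusted p alone 11 were higher and 7 lower in HKD livers, which is 9.73% and 6.19% beside 9.05% and 6.63% of all genes, so the shares are near the background. Their median log2 fold change was 0.03. The split depends on the scaling: on reads on genes 19 were higher and 0 lower, with a median of 0.24 beside 0.19 for all genes, of which 13.8% were then higher and 2.25% lower. The counts also moved when 1 liver was left out, to between 4 and 11 higher and between 0 and 6 lower. Higher calls numbered 4 without HKD 1, HKD 2, Flox 3 or Flox 4, 5 without Flox 2, 6 without HKD 4 and 7 without Flox 1. Lower calls numbered 0 without Flox 3, 1 without HKD 2, 2 without HKD 1 or Flox 4 and 3 without HKD 4 or Flox 2. Calls over all genes moved as well, from 1506 higher and 1104 lower to 737 to 1653 higher and 347 to 1123 lower.

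Of the other tubulin genes, 3 reached the minimum level. Tubb3, a β isotype of neurons, rose (log2 fold change 1.37, SE 0.306, adjusted p = 0.0213 from limma), but on 5 to 11 reads in HKD livers and 0 to 1 reads in Flox livers. Tubg1, the γ-tubulin that nucleates microtubules, fell from 12.2 ± 1.31 FPKM in Flox to 9.27 ± 1.05 FPKM in HKD livers (log2 fold change -0.40, adjusted p = 0.0482), and was at -0.18 (adjusted p = 0.290) with scaling to reads on genes. Tubd1, δ-tubulin, was at 2.13 ± 0.697 FPKM and 2.07 ± 0.488 FPKM (adjusted p = 0.989). The other 7 had at most 18 reads in a liver, and 2 of them had none in any liver.

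The 22 genes that fold tubulin or keep its dimers, the CCT chaperonin, prefoldin and the tubulin cofactors, were all tested, and 1 was higher and 1 lower. Prefoldin subunit Pfdn4 was at 2.66 ± 0.379 FPKM in HKD and 1.67 ± 0.162 FPKM in Flox livers (log2 fold change 0.63, adjusted p = 0.0188 from limma). Tbcb, a cofactor that binds α-tubulin, was at 20.7 ± 1.61 FPKM and 31.5 ± 7.53 FPKM (log2 fold change -0.58, adjusted p = 0.0427). The summed list was 430 to 490 FPKM in HKD and 398 to 509 FPKM in Flox livers, within which no group stood out. Of the 3 genes of tubulin mRNA autoregulation (Ttc5, Scaper and Cnot11), Scaper, which links TTC5 to the deadenylase, was lower (0.888 ± 0.0581 against 1.36 ± 0.154 FPKM, log2 fold change -0.56, adjusted p = 0.0264). The calls of Tbcb and Scaper did not hold with scaling to reads on genes (adjusted p = 0.157 and 0.178).

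Of 25 enzymes of tubulin modification, 19 were tested, with 3 higher and 1 lower. Vash2, a vasohibin, was at 1.68, 1.86, 0.0770 and 2.37 FPKM in HKD livers 1 to 4 and at 0, 0.0143, 0.0457 and 0 FPKM in Flox livers 1 to 4. HKD 3 was close to the Flox livers, and the other 3 HKD livers were far above them. Reads ran from 6 to 190 in HKD and from 0 to 3 in Flox livers, so its fitted log2 fold change (3.29, SE 0.758, adjusted p = 0.0234 from limma) depends on the pseudocount, and 9 of 16 alternatives kept it under 0.05. Ttll11, a polyglutamylase, and Ttll12 were higher (log2 fold change 1.16 and 0.45, adjusted p = 0.0436 and 0.0451). Atat1, the acetyltransferase of α-tubulin, fell from 2.37 ± 0.282 FPKM in Flox to 1.42 ± 0.197 FPKM in HKD livers (log2 fold change -0.70, adjusted p = 0.0157), with -0.495 and adjusted p = 0.0830 on reads on genes.

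Among the 27 tested microtubule regulators of 37, the end-binding protein gene Mapre1 (7.01 ± 0.859 against 4.87 ± 0.213 FPKM, log2 fold change 0.51, adjusted p = 0.0153 from limma) and the depolymerising kinesin gene Kif2a (1.90 ± 0.296 against 1.29 ± 0.0936 FPKM, log2 fold change 0.52, adjusted p = 0.0347) were higher, and none was lower. Of the 8 tested genes of the γ-tubulin complex, Mzt2 was lower (9.98 ± 1.24 against 13.8 ± 0.524 FPKM, adjusted p = 0.0201). Among the 31 tested motor genes of 36, 4 were higher and 2 lower. The log2 fold change was above 0 in 13 of 31 (49.7% of all genes), with a median of -0.04. With scaling to reads on genes that median was 0.17, beside 0.19 for all genes. The summed motor list was lower without overlap, at 330.6 to 339.0 FPKM in HKD and 339.8 to 374.8 FPKM in Flox livers, a sum that depends on the scaling between libraries. The kinesin heavy chain gene Kif5b was at 15.0, 11.4, 11.9 and 11.7 FPKM in HKD livers and 8.28, 7.48, 8.09 and 7.93 FPKM in Flox livers (log2 fold change 0.64, adjusted p = 0.00792). The dynein light intermediate chain gene Dync1li1 was at 8.94 ± 1.13 against 5.49 ± 0.421 FPKM (log2 fold change 0.69, adjusted p = 0.00821), and its relative Dync1li2 and the dynein regulator Pafah1b1 rose by less (log2 fold change 0.32 and 0.36, adjusted p = 0.0497 and 0.0453). The kinesin light chain gene Klc4 and the kinesin gene Kif13b were lower (log2 fold change -0.65 and -0.67, adjusted p = 0.0330 and 0.0461). Of these genes Mapre1, Kif5b and Dync1li1 stayed under 0.05 in all 17 alternatives, and the other 15 called genes of the 7 lists in 5 to 15 of the 16 or 17 run for each.

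**Figure D4:**
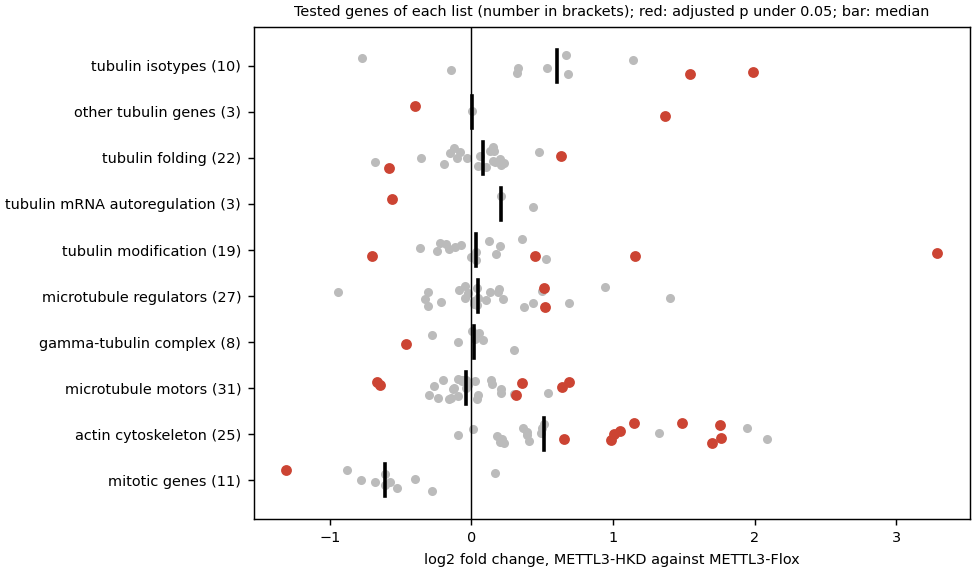
Log2 fold change in METTL3-HKD against METTL3-Flox livers of every tested gene (points) of the isotypes, the 7 other microtubule lists, the actin list and the mitotic list, with the number tested in brackets, the list median as a bar and genes with an adjusted p under 0.05 in red. The median of the isotypes (0.60) and of the actin list (0.51) lie to the right of those of the 7 other microtubule lists, and that of the mitotic genes (-0.61) to the left.

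Genes of the actin cytoskeleton and markers of other cell types are given beside the isotypes for comparison. Of 25 actin cytoskeleton genes 9 were higher and 0 lower at the adjusted p (9.05% and 6.63% of all genes), 16 did not pass, and 24 had a log2 fold change above 0 (49.7% of all genes). Actg1, cytoplasmic γ-actin, was at 210, 115, 96.2 and 99.3 FPKM in HKD livers and 49.6, 34.9, 33.4 and 30.1 FPKM in Flox livers (log2 fold change 1.76, adjusted p = 0.00564 from limma). Tpm4, Vim and Ezr (a tropomyosin, vimentin and ezrin) rose by 1.49, 1.76 and 1.70 on the log2 scale (adjusted p = 0.00315, 0.00915 and 0.00989). Vim is counted in this list although vimentin is an intermediate filament protein. The summed actin list was 1417, 976, 803 and 858 FPKM in HKD livers 1 to 4, the same order as for Tubb6.

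RNA of whole liver comes from many cell types, in which fewer cells of a type and less RNA per cell cannot be told apart. At the adjusted p 9.05% of all genes were higher and 6.63% lower, and the marker counts stand beside these shares. Of 10 neutrophil markers 7 were higher: S100a8 was at 99.6 to 519 FPKM in HKD and 3.32 to 16.9 FPKM in Flox livers, and S100a9 at 195 to 867 FPKM and 6.55 to 20.5 FPKM. The summed neutrophil list overlapped (942 to 2481 against 645 to 2339 FPKM). Its largest member on average was Lcn2, named here after its values were seen and also made by hepatocytes (733 against 1174 FPKM). Of 6 monocyte markers 5 were higher, with a summed list of 26.4 to 101 FPKM in HKD and 2.22 to 5.97 FPKM in Flox livers, and Ccr2 at 1.48 to 3.95 FPKM against 0.253 to 0.696 FPKM. Ly6c2 overlapped between groups. Of 6 tested cholangiocyte markers 5 were higher (summed list of 7 genes 119 to 370 against 52.6 to 77.7 FPKM), Krt19 being at 1.31 to 3.73 against 0.417 to 0.871 FPKM and Epcam at an adjusted p of 0.0547 from limma. Most of the summed cholangiocyte list was Spp1, named here after its values were seen (mean 208 FPKM in HKD and 60.3 FPKM in Flox livers). Of 10 macrophage markers 4 were lower and 0 higher (summed list 140 to 280 against 261 to 621 FPKM), among them Clec4f and Vsig4 of Kupffer cells (log2 fold change -1.31 and -0.96). With scaling to reads on genes neither passed (adjusted p = 0.0600 and 0.0662 from limma), and 7 and 10 of 17 alternatives kept them under 0.05.

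Hepatocyte markers were abundant in every liver. Alb and Apoa1 had log2 fold changes of -0.03 and -0.47 (adjusted p = 0.961 and 0.230 from limma). Of 10 hepatocyte markers 1 was lower and 0 were higher at the adjusted p (6.63% and 9.05% of all genes). The log2 fold change was above 0 in 0 of 10 (49.7% of all genes), and its median was -0.44. With scaling to reads on genes that median was -0.22, beside 0.19 for all genes. The summed list overlapped, at 23100 to 33796 FPKM in HKD and 29883 to 34651 FPKM in Flox livers. Of 8 endothelial markers 1 was lower (Stab2 and Clec4g at adjusted p = 0.506 and 0.384 were not). Of 8 stellate and fibroblast markers 1 was higher and 1 lower (Lrat, log2 fold change -0.88, adjusted p = 0.0556 with scaling to reads on genes), with Reln at an adjusted p of 0.780. None of 4 tested lymphocyte markers passed. Of 4 tested platelet markers Ppbp rose on 9 to 39 against 2 to 4 reads, and Pf4 did not pass (adjusted p = 0.107). Apart from 1 platelet marker, no marker of these 9 lists was at 0 in all livers. The part of these cells in the levels of Tubb6 and Tuba1a was not tested.

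Outside the lists, 5 protein-coding genes had a profile over the 8 livers nearest to that of the summed isotypes, by the root-mean-square distance of centred log2(FPKM + 0.1) values, among 12888 genes with a median distance of 0.580. These were Tacc2 (distance 0.109), which encodes a centrosomal coiled-coil protein, the stress transcription factor gene Ddit3 (0.155), Pilrb2 (0.159), AB124611 (0.198) and Zfp330 (0.203). Tacc2 was at 8.56, 6.50, 4.37 and 4.46 FPKM in HKD livers 1 to 4 and at 6.19, 2.57, 4.06 and 5.43 FPKM in Flox livers 1 to 4. None of the 5 passed the test between groups (adjusted p between 0.221 and 0.647 from limma). That follows from the choice, since the summed isotypes they were picked to resemble overlapped between the groups.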

How the data were processed

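The 8 liver libraries were grouped by their labels. RNA libraries were made with a SMARTer mRNA-Seq kit per the labels. The authors deposited FPKM per gene, with gene lengths. The submitters' processing notes name the builds GRCm38 and mm10, and the aligner, counter and strand setting are not given in the sources used here. FPKM times length and an effective library size gave whole reads (within 0.05) for 100% of non-zero values, and 27 symbols turned into dates were restored by identifier. Of the isotypes, 9 have the coordinates of GENCODE M21, and Tubb6 has not. Fits used limma 3.58.1 in R 4.3.3, with lmFit followed by eBayes under a trend of variance with mean. Sums, ratios and shares were compared by two-sided exact permutation tests over the 8 livers in Python 3.11.15 with scipy 1.17.1. Each call needed an adjusted p under 0.05, and the stricter also a log2 fold change of at least 1.

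The isotypes and gene lists were chosen with earlier results of these data known. Genes named are the isotypes, Mettl3, other tubulin genes and pseudogenes with a mean of at least 0.1 FPKM, up to 4 genes per direction with the smallest adjusted p of each microtubule, actin or mitotic list, the first 2 markers of each cell type, genes whose exons overlap an isotype, and the 5 nearest profiles. Whether replicates came from separate litters is not stated. Alternatives changed the pseudocount, minimum, scaling, trend, block, gene type or model, or left out 1 liver. The coding ends of some isotypes are not reported here.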

Additional observations from a re-analysis of the deposited data

Results flagged for a closer look

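In groups of 4 livers, a value was marked when its gap to the nearest other liver took up more of the range of its group than Dixon's 95% critical value allows. Of 146 groups of named values, 15 were marked, and chance alone marks about 1 in 20.

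Among the isotypes, Tuba8 was at 3.70 FPKM in Flox 1 while the other 3 Flox livers lay between 1.01 and 1.19 FPKM. The share of Tuba1b was lowest in Flox 1 at 15.4%, against 18.8 to 19.4% in the others, and the share of Tubb4b was highest in Flox 2 at 60.4%, against 46.3 to 48.7%. Tubb3 was at 0 FPKM in Flox 1 and at 1 read in each other Flox liver.

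HKD 1 gave 6 of the marked values. Mapre1 (8.29 FPKM), Kif5b (15.0 FPKM), Actg1 (210 FPKM), Vim (31.0 FPKM) and S100a8 (519 FPKM) were highest there, and Ccnb2 (0.0325 FPKM, 1 read) was lowest. In Flox 1, Clec4f (103 FPKM) and Vsig4 (38.8 FPKM) were highest. In Flox 2, Atat1 (1.94 FPKM) was lowest and Ccr2 (0.696 FPKM) highest of its group. Reln was lowest in HKD 3 (0.812 FPKM, against 0.925 to 0.939 FPKM).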

How the results depend on the processing

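Tubb6 and Tuba1a were called in each of 17 alternative fits, and no isotype was called lower in any. The count at the adjusted p alone was 2 or 3 isotypes, the third being Tuba1b, and 2 to 3 with 1 liver left out. The 11 other microtubule genes called higher became 6 with no minimum, 17 among protein-coding genes, 19 with scaling to reads on genes and 4 to 11 with 1 liver left out. The 7 called lower became 3 with no mean-variance trend, 2 with no minimum, 0 with scaling to reads on genes and 0 to 6 with 1 liver left out. Over all genes, 1506 higher calls became 1204 with no minimum, 1635 among protein-coding genes and 2303 with scaling to reads on genes. The 1104 lower calls of all genes became 746 with no mean-variance trend, 682 with no minimum and 374 with scaling to reads on genes. With 1 liver left out, calls over all genes lay between 737 and 1653 higher and between 347 and 1123 lower. The α to β ratio had a log2 difference of -0.41 on reads not divided by length and of -0.43 to -0.24 with 1 liver left out. Some values that had not passed moved above 0 with scaling to reads on genes. Mettl3 was then at 0.047, Tuba4a at 0.072, Alb at 0.186, Stab2 at 0.055 and Stk16 at 0.082. All of these stayed below the median of all genes, which that scaling moved to 0.193. With 1 liver left out, Mettl3 lay between -0.26 and -0.056, Tuba4a between -0.39 and 0.037, Tubd1 between -0.14 and 0.146, Alb between -0.13 and 0.055 and Reln between -0.053 and 0.39. The causes were not tested.

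With the replicate block, in which the replicate number is a term in the fit, the isotype counts were the same (2 higher, 0 lower). Of the other microtubule genes 5 were higher and 4 lower, and of all genes 971 and 645. Deviations from the group means correlated at 0.071, -0.084, -0.013 and -0.034 between same-numbered livers, and at -0.067 to 0.094 between other pairs. These correlations cannot tell whether same-numbered livers shared a litter, which is not stated. Over all genes, 782 higher and 253 lower calls at both thresholds became 317 and 88 with a pseudocount of 1 FPKM, 450 and 183 with a minimum of 1 FPKM, 685 and 163 with no minimum, and 1036 and 133 with scaling to reads on genes. With 1 liver left out they lay between 487 and 957 higher and between 94 (without Flox 3) and 336 lower. Median-of-ratios scaling could hardly move a value, its factor being 1.01 in all livers. Depth limits Tubb2b, Tuba8, Tuba1a, Tubb3 and Vash2.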

Other observations

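Genes of mitosis, for which microtubules form the spindle, were listed beside the isotypes. Of these, 0 were higher and 1 lower at the adjusted p (9.05% and 6.63% of all genes). Of 18 mitotic genes 11 reached the minimum level, 10 of which had a log2 fold change below 0, with a median of -0.61. The other 1 was above 0, as were 49.7% of all genes. Ccnb2, the mitotic cyclin B2, was at 0.0325, 0.177, 0.181 and 0.176 FPKM in HKD livers 1 to 4 and at 0.552, 0.323, 0.559 and 0.487 FPKM in Flox livers 1 to 4. The groups did not overlap, on 1 to 5 reads in HKD and 8 to 13 reads in Flox livers (log2 fold change -1.31, SE 0.315, adjusted p = 0.0269 from limma), and 12 of 16 alternatives kept the adjusted p under 0.05. Of all genes, 9.95% were without overlap in the lower direction. The summed list was 1.70 to 3.23 FPKM in HKD and 2.95 to 4.97 FPKM in Flox livers.

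The 13 mitochondrial mRNAs, listed as a check of RNA composition, had 1 gene lower and 0 higher at the adjusted p (6.63% and 9.05% of all genes). Their median log2 fold change was -0.10. Their sum was 21880, 25011, 35656 and 38027 FPKM in HKD livers 1 to 4, so it was lowest in HKD 1 and HKD 2, the livers with the highest summed isotypes, and it was 31849 to 37175 FPKM in Flox livers. Its part in the order of the livers was not tested.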
